A study of Mus musculus with 8 samples.

Results

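Resident cardiac macrophage markers are genes that label the macrophages living in heart muscle, and 8 of them (Lyve1, Cd163, Mrc1, F13a1, Cbr2, Timd4, Vsig4 and Gas6) were followed here through a mouse model of autoimmune myocarditis. They were taken by gene symbol from a table of 34745 genes, where each symbol occurred in 1 row. The table holds FPKM values (mapped fragments scaled to exon length and library depth) of messenger RNA in 8 libraries of mouse heart, all labelled Balb/c. Control hearts were wild type, labelled treatment Control and day 0 (n = 2). Hearts with experimental autoimmune myocarditis (EAM) were labelled day 21, either wild type (n = 3) or knockout for the E3 ubiquitin ligase gene Trim21 (n = 3). EAM was raised by subcutaneous immunization with a peptide of cardiac myosin heavy chain in complete Freund's adjuvant. The protocol gives control mice adjuvant with buffer, yet their hearts carry the label day 0, so immunization and day cannot be told apart between control and EAM. The submitters' earlier library names place both EAM groups at day 35, which differs from the labels, and hold the letters EAM for the controls too. How the knockout was made, the age of the mice and the part of the heart taken were given nowhere in the sources used here. Hearts of knockout mice lacking EAM were not analysed here.

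Macrophages are present in the healthy heart from before birth and maintain themselves largely by local division. They take up dying cells, free haemoglobin and matrix fragments, and many carry the surface receptors LYVE1 and TIMD4. In an inflamed heart, monocytes that express CCR2 enter from the blood and become macrophages with another set of genes. Bulk RNA cannot tell fewer cells of a type from less RNA per cell, and it does not show which cell made a transcript. Several members are also known from other cells: Lyve1 from lymphatic endothelium, Gas6 from fibroblasts and vessel walls, F13a1 from monocytes and platelets, Cbr2 from lung airway, and Vsig4 from liver and serosal macrophages. The label could therefore not be checked for cell of origin in these data.

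Depth, read from the steps between low FPKM values, was about 14390000 to 16930000 fragments per library. Trim21 was at 0.0234 ± 0.0241 FPKM in knockout EAM (SD, n = 3), 3.22 ± 0.207 in wild-type EAM (SD, n = 3) and 2.08 ± 0.141 in control (SD, n = 2) (log2 change between the EAM groups -2.04, SE 0.10, limma adjusted p = 1.52e-05). The EAM libraries wild type 2, knockout 1 and knockout 2 stood apart in tissue content. Over 8 atrial genes the mean log2(FPKM + 1) was 7.11 to 7.73 in these libraries and 1.65 to 4.42 in the other 5. Over 6 adipocyte genes it was 1.64 to 3.30 against 0.0192 to 0.306. The earlier library names give each library of a group its own number, but no source says that these numbers are animals, so p-values measure only the spread between libraries, which may be technical.

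The members differed widely in level on the FPKM scale, which corrects for transcript length. Gas6 had the highest mean over the 8 libraries, 79.7 FPKM, followed by Cbr2 at 9.44, F13a1 at 4.43, Lyve1 at 3.51, Mrc1 at 2.46, Vsig4 at 1.21, Cd163 at 1.19 and Timd4 at 0.516 FPKM. Gas6 (64.9 to 97.8 FPKM) and Cbr2 (6.69 to 14.5 FPKM) did not overlap with their neighbours in this order. From F13a1 downward each gene's range overlapped with that of the next. Within a gene, the highest library exceeded the lowest by 1.51-fold for Gas6, by 2.01- to 3.91-fold for the other members except Vsig4, and by 14.1-fold for Vsig4.

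**Figure D1:**
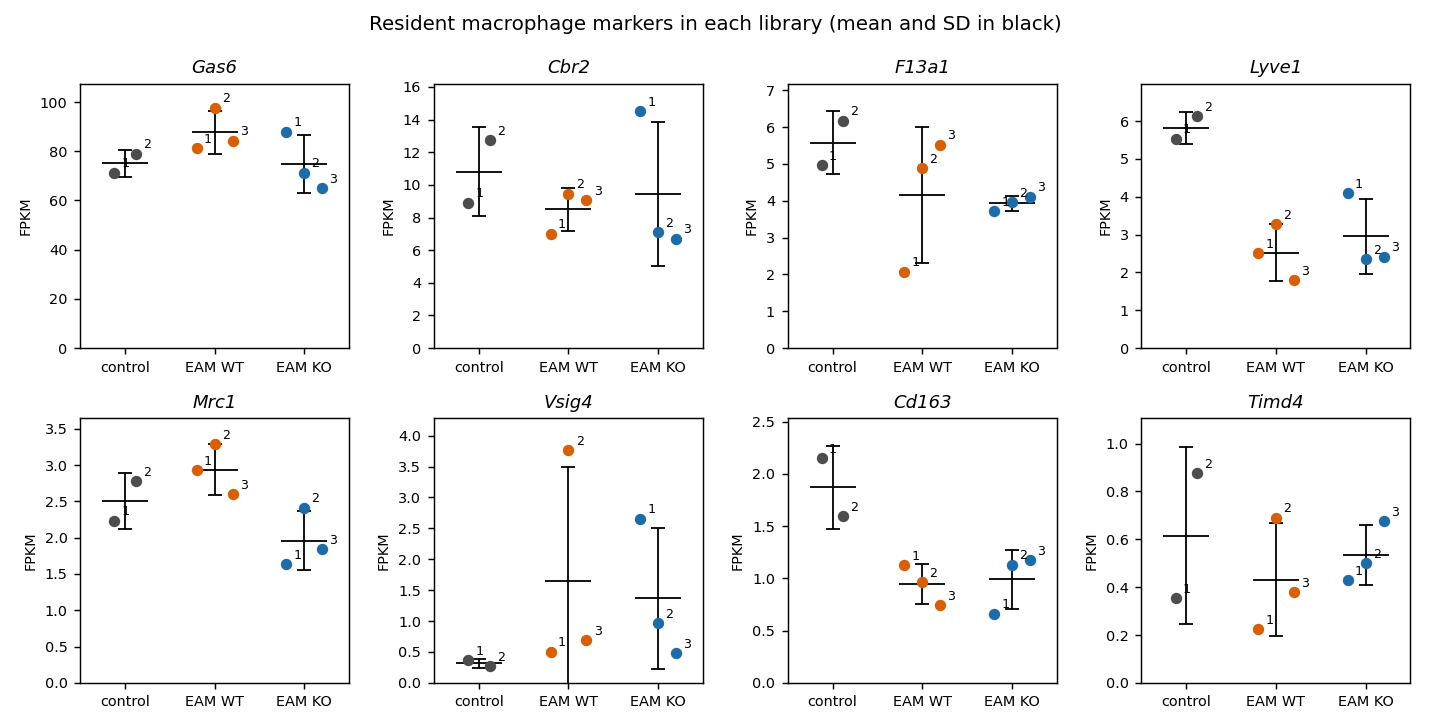
FPKM of each member in control, wild-type EAM and knockout EAM libraries, with replicate numbers beside the points and group mean and SD in black (SD bars end at 0). Both control libraries lie above all 6 EAM libraries for Lyve1 and Cd163, and Vsig4 is high in wild-type EAM library 2 and knockout EAM library 1.

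Genes were tested with limma on log2(FPKM + 1) over the 10393 genes that reached 1 FPKM in at least 2 libraries, with Benjamini-Hochberg adjustment over all of them and a threshold of 0.05. Of the 8 members, 7 were tested. Timd4 reached 1 FPKM in 0 libraries and was not tested. Vsig4 entered the test through 2 libraries, wild-type EAM library 2 and knockout EAM library 1. None of the 7 tested members passed the threshold in any of the 3 comparisons with limma. At an unadjusted limma p under 0.05 there were 2 in wild-type EAM against control (Lyve1 and Cd163), 1 in knockout EAM against wild-type EAM (Mrc1) and 2 in knockout EAM against control (Lyve1 and Cd163). Among all genes tested, 1.49% passed in the first comparison (1.36% rose, 0.135% fell), 3.09% in the second (0.289% rose, 2.80% fell) and 1.37% in the last (0.568% rose, 0.799% fell), and 14.6%, 20.0% and 13.7% had an unadjusted p under 0.05. The median log2 change of the tested members was -0.30, 0.01 and -0.25, beside 0.08, -0.12 and -0.03 over all tested genes. The 3 comparisons share libraries and are not independent of each other.

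**Figure D2:**
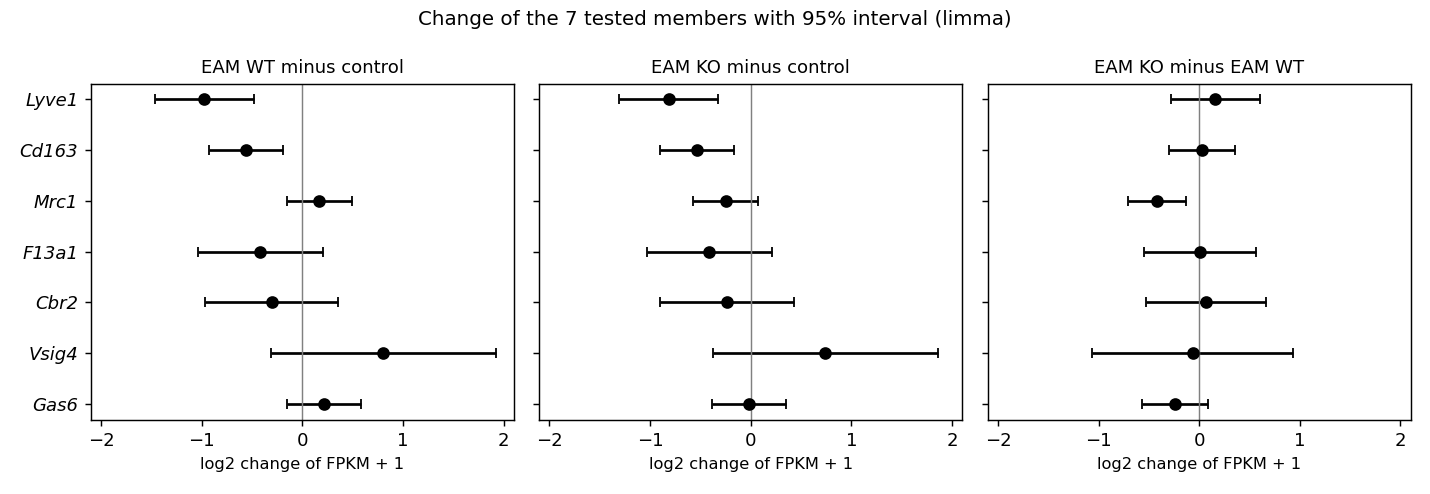
Log2 change of FPKM + 1 for the 7 tested members in the 3 comparisons, with 95% intervals from limma. The intervals of Lyve1 and Cd163 lie below 0 in both comparisons with control, and that of Mrc1 lies below 0 in knockout EAM minus wild-type EAM; none of these passed after adjustment over all genes.

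In EAM hearts against control, Lyve1 had the lowest fitted change among the members in both genotypes. Lyve1 (ENSMUSG00000030787) encodes a receptor for hyaluronan found on lymphatic vessels and resident macrophages, and lies on chromosome 7 from 110850607 to 110862953 on the minus strand (mm10). It was at 5.53 and 6.13 FPKM in control, at 2.51, 3.28 and 1.79 FPKM in wild-type EAM and at 4.10, 2.35 and 2.41 FPKM in knockout EAM. The control libraries were both above all 6 EAM libraries, and the EAM groups overlapped. The log2 change was -0.97 (SE 0.22, 95% interval -1.47 to -0.48, limma adjusted p = 0.0711) in wild-type EAM and -0.81 (SE 0.22, limma adjusted p = 0.127) in knockout EAM against control. A comparison of the mean of both EAM groups with control, added after the values were seen, gave -0.89 (SE 0.20, limma adjusted p = 0.0689), with 1.25% of all genes past the threshold. Between the EAM groups the log2 difference was 0.16 (SE 0.20, 95% interval -0.28 to 0.60, limma adjusted p = 0.684).

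Knockout 1, the library highest in adipocyte genes, was also the EAM library highest in Lyve1. Without it, Lyve1 passed in wild-type EAM against control (log2 change -0.97, SE 0.17, limma adjusted p = 0.0402). Knockout 1 is in neither of these groups and enters only through the spread pooled over groups. The change itself was the same with all libraries (-0.97, SE 0.22). Without the 3 libraries high in atrial transcripts, which leaves 1 knockout library, the log2 change of Lyve1 was -1.12 (SE 0.18). Over all 22 alternatives its limma adjusted p in this comparison ran from 0.0150 to 0.334. With the adipocyte score as a covariate, a setting added after the values were seen, the change of Lyve1 was -1.13 (SE 0.16, limma adjusted p = 0.0177) in wild-type EAM and -1.13 (SE 0.19, limma adjusted p = 0.0393, range over alternatives 0.0393 to 0.541) in knockout EAM against control. The slope of Lyve1 on that score was 0.19 (SE 0.06, limma adjusted p = 0.413). Of 8 listed lymphatic endothelial genes, 4 were tested, with positive log2 changes in wild-type EAM against control (median 0.27), and 0 of them passed with limma. Of those too low for the test, Reln was at 0.229 ± 0.00898 FPKM in control (SD, n = 2), 0.113 ± 0.0302 in wild-type EAM and 0.156 ± 0.0690 in knockout EAM (SD, n = 3 each), with both controls above all 6 EAM libraries as for Lyve1. Mmrn1 was at 0.722 ± 0.327 FPKM in control, 0.454 ± 0.243 in wild-type EAM and 0.406 ± 0.136 in knockout EAM, and its groups overlapped. The lymphatic transcription factor gene Prox1 was at 1.61 ± 0.175 FPKM in control (SD, n = 2), 2.14 ± 0.566 in wild-type EAM and 4.12 ± 1.56 in knockout EAM (SD, n = 3 each). Flt4, a receptor for lymphatic growth factors, stayed between 4.01 and 4.84 FPKM in all 8 libraries. The 8 listed lymphatic genes summed to 19.3 and 22.3 FPKM in the controls, 24.02 to 28.55 in wild-type EAM and 18.9 to 25.1 in knockout EAM, and the chemokine gene Ccl21a was listed at 0 in every library. Thy1 was the largest part of this sum in every library. It was at 9.03 and 10.8 FPKM in control, 12.2 to 15.4 in wild-type EAM and 8.03 to 12.4 in knockout EAM. The sum is therefore a description and not a measure of lymphatic vessels. The part of lymphatic vessels in the level of Lyve1 was not tested.

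Cd163 (ENSMUSG00000008845), which encodes a macrophage receptor that takes up haemoglobin, also had both controls above the EAM libraries. The gene lies on chromosome 6 from 124304656 to 124330527 on the plus strand (mm10). It was at 2.15 and 1.59 FPKM in control, at 1.13, 0.966 and 0.742 FPKM in wild-type EAM and at 0.662, 1.13 and 1.18 FPKM in knockout EAM. Both controls were above all 6 EAM libraries, and the 2 EAM groups overlapped. The log2 change was -0.56 (SE 0.16, 95% interval -0.93 to -0.19, limma adjusted p = 0.137) in wild-type EAM and -0.53 (SE 0.16, limma adjusted p = 0.178) in knockout EAM against control. The difference between EAM groups was 0.03 (SE 0.15, 95% interval -0.30 to 0.35). Lyve1 and Cd163 were the 2 tested members with both controls above all EAM libraries, an arrangement found for 4.66% of all tested genes, and 6.68% had every wild-type EAM library below both controls.

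Cd163 is a well-known target of glucocorticoid hormones in macrophages, and its promoter window is shown for that reason. RefSeq holds promoter windows (250 bases before to 50 after the start, GRCm38.p6) for 7 of the 8 members, with 2 windows for F13a1. Capitals mark AGAACA, a hexamer of the glucocorticoid receptor's element, read on either strand, in the window of Cd163 at chr6:124304401-124304700 on the plus strand.
Cd163 promoter: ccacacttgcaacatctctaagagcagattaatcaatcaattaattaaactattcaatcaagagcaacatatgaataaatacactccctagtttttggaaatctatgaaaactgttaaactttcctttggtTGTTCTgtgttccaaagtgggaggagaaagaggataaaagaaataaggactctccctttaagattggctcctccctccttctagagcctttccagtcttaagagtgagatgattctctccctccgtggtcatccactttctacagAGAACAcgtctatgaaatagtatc
The window holds AGAACA, counted on both strands, 2 times. Of the 7 genes 1 held this hexamer, Cd163. It occurs in 19.0% of all 32851 promoter windows of that length, so its presence does not set Cd163 apart. A match of these letters is a description of the sequence and does not show binding.

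Glucocorticoid-responsive genes were a list of 12, all tested. In wild-type EAM against control, 2 fell (Fkbp5 and Zbtb16) and 0 rose. Of the 12 changes, 5 were positive and 7 negative, and the highest was that of Sgk1 (0.34, SE 0.19). Fkbp5, a chaperone of the glucocorticoid receptor, fell from 3.93 ± 0.399 FPKM (SD, n = 2) to 1.42 ± 0.330 FPKM (SD, n = 3; limma adjusted p = 0.00898), and was at 0.922 ± 0.0854 FPKM in knockout EAM. Zbtb16, a transcription factor gene, fell from 10.7 ± 4.56 to 1.84 ± 0.267 FPKM (limma adjusted p = 0.00479). In knockout EAM against wild-type EAM, 3 fell (Tsc22d3, Per1 and Mt2), and in knockout EAM against control 5 fell (those 3 with Fkbp5 and Zbtb16). In each of these comparisons of the knockout, 2 changes were positive and 10 negative. The median log2 change of the list, with the comparisons in this order, was -0.07, -0.44 and -0.66, beside -0.56, 0.03 and -0.53 for Cd163. The part of these hormones in the level of Cd163 was not tested.

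The genes that handle what Cd163 takes up were described as a list of 11, of which 8 were tested. None passed with limma in wild-type EAM against control, and all 8 had positive changes. They ran from 0.0039 to 2.38 (median 0.20, beside 0.08 over all tested genes). Between the EAM groups, as knockout minus wild type, all 8 changes were negative (median -0.37, beside -0.12 over all tested genes). There 1 gene fell, Hmox1, the enzyme that breaks down haem. Hmox1 was at 5.58 ± 0.196 FPKM in control (SD, n = 2), 6.89 ± 0.727 in wild-type EAM and 3.87 ± 0.392 in knockout EAM (SD, n = 3 each; log2 change -0.69, SE 0.11, limma adjusted p = 0.0154 between the EAM groups).

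Mrc1 (ENSMUSG00000026712), the mannose receptor that binds glycoproteins, was the member with the lowest fitted change between the genotypes. It lies on chromosome 2 from 14229392 to 14332057 on the plus strand (mm10). Mrc1 was at 2.23 and 2.78 FPKM in control, at 2.93, 3.29 and 2.60 FPKM in wild-type EAM and at 1.63, 2.41 and 1.84 FPKM in knockout EAM. All 3 knockout libraries were below all 3 wild-type EAM libraries, and control overlapped with both groups. In knockout EAM against wild-type EAM the log2 change was -0.42 (SE 0.13, 95% interval -0.71 to -0.13, limma adjusted p = 0.117). Over 22 alternative settings it stayed negative, with adjusted p from 0.0878 to 0.497. Among all tested genes 22.6% were lower in every knockout library than in every wild-type EAM library, so this arrangement was common, and 2.58% were higher in every one. Against control, the log2 change of Mrc1 was 0.17 (SE 0.14) in wild-type EAM and -0.25 (SE 0.14) in knockout EAM, and neither passed.

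Clearance of dying cells is represented by Timd4 and Gas6. Timd4 (ENSMUSG00000055546; chromosome 11, 46810800 to 46844332, plus strand, mm10) encodes a receptor for phosphatidylserine, the lipid that dying cells expose. It was at 0.354 and 0.876 FPKM in control, at 0.224, 0.691 and 0.380 FPKM in wild-type EAM and at 0.430, 0.4999 and 0.675 FPKM in knockout EAM. The 3 groups overlapped, and the 2 controls spanned nearly the whole range. For this gene FPKM multiplied by exon length came out at 7 to 28 whole fragments per library, so counting error alone is wide: the 7 fragments of wild-type EAM library 1 give an exact Poisson 95% interval of 0.0900 to 0.461 FPKM and the 28 of control 2 one of 0.582 to 1.27 FPKM. Such intervals cover counting error only. The 2 controls, at 13 and 28 fragments, differed by more than the group means did, which were 0.615 FPKM in control, 0.432 in wild-type EAM and 0.535 in knockout EAM. With no filter on low genes its log2 change was -0.17, 0.11 and -0.06 with the comparisons in the same order as above.

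Gas6 (ENSMUSG00000031451; chromosome 8, 13465374 to 13494535, minus strand, mm10) encodes a protein that bridges phosphatidylserine to the receptors AXL, MERTK and TYRO3. It was at 71.2 and 79.0 FPKM in control, at 81.3, 97.8 and 84.3 FPKM in wild-type EAM and at 87.9, 71.3 and 64.9 FPKM in knockout EAM. All wild-type EAM libraries were above both controls, while knockout libraries spread over both other groups. The log2 change was 0.22 (SE 0.16) in wild-type EAM against control, -0.24 (SE 0.15, 95% interval -0.56 to 0.09) in knockout EAM against wild-type EAM and -0.02 (SE 0.16) in knockout EAM against control, none past the threshold. Among all tested genes, 24.6% had every wild-type EAM library above both controls. Within each EAM group Gas6 was highest in a library rich in adipocyte and atrial genes, wild-type EAM library 2 and knockout EAM library 1, and its slope on the adipocyte score was 0.13 (SE 0.05, limma adjusted p = 0.629). Without the 3 libraries high in atrial transcripts the changes of Gas6, with the comparisons in this order, were 0.14 (SE 0.21), -0.35 (SE 0.26) and -0.21 (SE 0.26). With the adipocyte score as a covariate they were 0.11 (SE 0.14), -0.35 (SE 0.13) and -0.23 (SE 0.16), and with the atrial score 0.0295 (SE 0.17), -0.26 (SE 0.13) and -0.23 (SE 0.18), none past the threshold with limma.

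Of 15 partners of Gas6 and other clearance genes, 7 were tested, and 2 fell in knockout EAM against wild-type EAM. Axl, a receptor for Gas6, was at 20.9 ± 1.67 FPKM in wild-type EAM and 12.4 ± 1.98 FPKM in knockout EAM (SD, n = 3 each), a log2 change of -0.71 (SE 0.13, limma adjusted p = 0.0256). Pros1, the other ligand of these receptors, was at 5.77 ± 0.275 FPKM in wild-type EAM and 4.10 ± 0.0981 FPKM in knockout EAM, a log2 change of -0.41 (SE 0.09, limma adjusted p = 0.0419). In control Axl was at 17.6 ± 0.439 FPKM (SD, n = 2), and Pros1 was at 4.24 FPKM in both libraries. None of the 7 passed in either comparison with control. The receptor genes Mertk and Tyro3 stayed below 1 FPKM in all libraries and were not tested. Of the genes of fibroblasts, which are known to make Gas6, all 9 tested markers had negative changes between the EAM groups and 3 fell (Col3a1, Dcn and Lum), with a summed FPKM of 660.3 to 813 in wild-type EAM, 359.6 to 516 in knockout EAM and 522 to 531 in control. Their part in the values of Gas6, Axl and Pros1 was not tested.

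Vsig4 was the most variable member. Vsig4 (ENSMUSG00000044206; chromosome X, 96247203 to 96293438, minus strand, mm10) encodes a complement receptor of tissue macrophages that binds C3 fragments and restrains T cells. It was at 0.364 and 0.267 FPKM in control, at 0.506, 3.76 and 0.694 FPKM in wild-type EAM and at 2.66, 0.967 and 0.479 FPKM in knockout EAM. High values came from wild-type EAM library 2 and knockout EAM library 1, one of each genotype, and knockout EAM library 2 came next. The equivalents in fragments were about 86, 59 and 22, against 6 to 15 in the other 5 libraries. All 6 EAM libraries were above both controls, an arrangement found for 7.55% of tested genes (14.1% had every knockout library above both controls). The counting intervals of wild type 1, wild type 3 and knockout 3 overlapped with those of both controls. For example, knockout EAM library 3 had 0.255 to 0.863 FPKM and control 1 had 0.164 to 0.680 FPKM. That of knockout 2 began at 0.594 FPKM and that of control 2 ended at 0.598 FPKM, a margin that depends on rounding to whole fragments. Overlap of such intervals is not a test. The log2 change was 0.81 (SE 0.50, limma adjusted p = 0.512) in wild-type EAM and 0.74 (SE 0.50, limma adjusted p = 0.548) in knockout EAM against control, and -0.06 (SE 0.44, 95% interval -1.06 to 0.94) between the EAM groups.

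**Figure D3:**
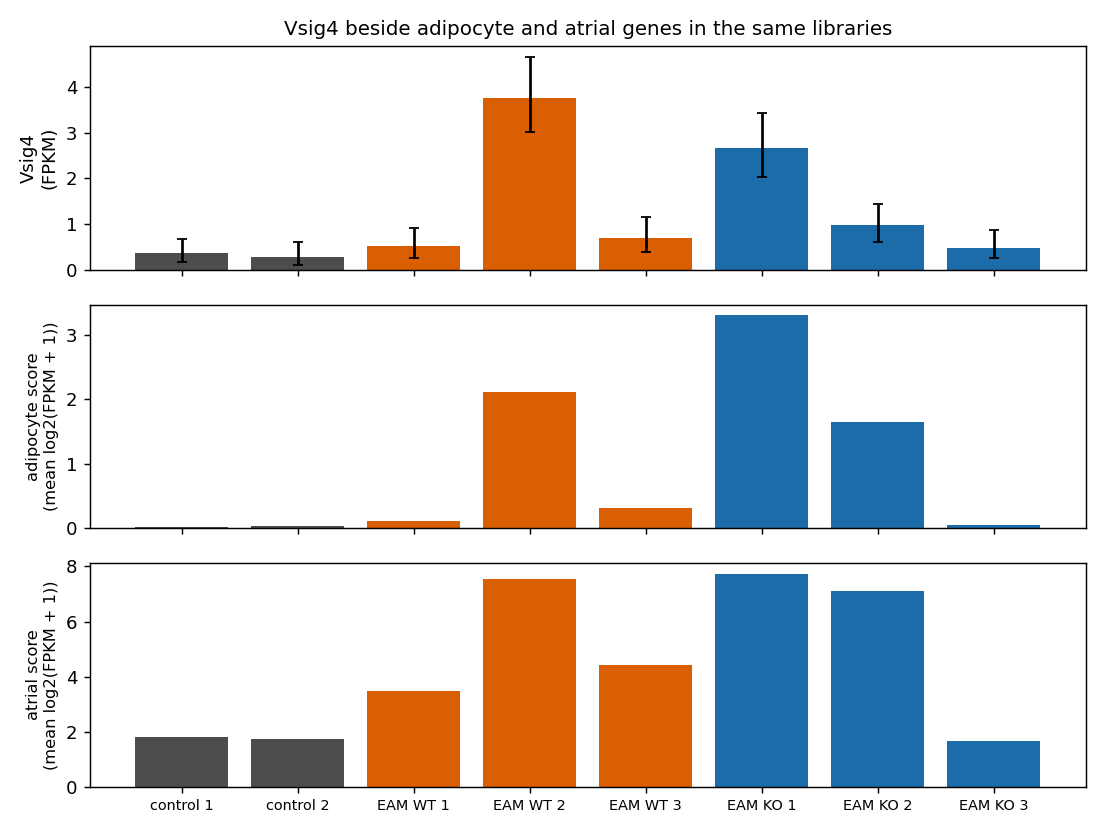
Vsig4 FPKM with 95% counting intervals (top) and the mean log2(FPKM + 1) of 6 adipocyte genes (middle) and 8 atrial genes (bottom) in each of the 8 libraries. Wild-type EAM library 2, knockout EAM library 1 and knockout EAM library 2 are the 3 highest libraries in all panels, and their order differs.

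The 3 libraries with most Vsig4 were the 3 highest in adipocyte and in atrial genes. The adipocyte score was 2.104, 3.30 and 1.64 in wild-type EAM library 2, knockout 1 and knockout 2, and the summed FPKM of the 7 listed adipocyte genes was 29.2, 106 and 19.7 there, against 0.0989 to 2.02 elsewhere. Of 6 mesothelial genes, 5 were highest in the same 3 libraries, among them Upk3b at 1.07, 2.61 and 0.434 FPKM there and at 0 to 0.0985 FPKM elsewhere. The other, Wt1, was at 0.724, 0.423 and 0.481 FPKM there and at 0.397 to 0.859 FPKM elsewhere. In fits with the 3 groups, added after the values were seen, the log2 level of Vsig4 rose by 0.54 per unit of adipocyte score (SE 0.08, limma adjusted p = 0.0284), with 0.683% of all genes past the threshold. Per unit of atrial score it was 0.24 (SE 0.06, limma adjusted p = 0.210), with 0.664% of genes past the threshold. Vsig4 was in the test only because of 2 of these libraries, so the slopes describe those libraries and support nothing further. With the adipocyte score as a covariate, the log2 change of Vsig4 in knockout EAM against control was -0.14 (SE 0.25). That fit contains the same slope, so its value carries the same limit and does not show what lies behind the level of Vsig4. The 6 listed genes of liver and Kupffer cells, another known source of Vsig4, summed to 0.305 and 0.306 FPKM in control, 0.348 to 0.699 in wild-type EAM and 0.157 to 0.520 in knockout EAM, with Alb and Marco listed at 0 in every library. None of the 6 reached the level needed for the test, and the part of fat, atrial, mesothelial or liver transcripts in the level of Vsig4 was not tested.

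The genes most like Vsig4 over the 8 libraries, by Pearson correlation of log2(FPKM + 1) among the other tested genes, were Cxcl13 (r = 0.99), Cd207 (r = 0.99) and Igkv16-104 (r = 0.98, n = 8 libraries each). Cxcl13, a chemokine that attracts B cells, was at 4.71, 2.21 and 0.945 FPKM in wild-type EAM library 2, knockout 1 and knockout 2 and at 0 to 0.598 FPKM in the other 5. Cd207, which encodes the lectin langerin, was at 4.201, 2.37 and 0.504 FPKM in the same libraries and at 0 to 0.411 FPKM in the others. These correlations rest on the same 3 libraries and are a description of likeness.

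The promoter window of Vsig4 is shown because this member varied most. Capitals mark GGAAGT, the core bound by PU.1 and other ETS factors, on either strand, at chrX:96293389-96293688 on the minus strand.
Vsig4 promoter: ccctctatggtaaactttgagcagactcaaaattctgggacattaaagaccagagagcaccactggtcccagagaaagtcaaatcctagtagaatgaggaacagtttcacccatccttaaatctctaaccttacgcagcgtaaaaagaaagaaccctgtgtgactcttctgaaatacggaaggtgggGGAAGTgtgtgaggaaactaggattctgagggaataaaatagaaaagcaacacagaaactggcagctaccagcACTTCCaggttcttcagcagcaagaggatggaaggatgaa
The window holds GGAAGT, counted on both strands, 2 times. Windows of F13a1, Mrc1 and Timd4 held it as well, which makes 4 of 7 members with a window, and the motif occurs in 23.8% of all windows. TGCTGA, a hexamer bound by MAF factors, was searched on both strands too and was found in the windows of Cbr2, Timd4 and Vsig4, and in 19.5% of all windows. The motifs searched can overlap by single letters at their ends, and a window without a motif says only that these letters are not in it.

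F13a1 and Cbr2 encode enzymes. F13a1 (ENSMUSG00000039109; chromosome 13, 36867178 to 37050244, minus strand, mm10) makes the A chain of factor XIII, a transglutaminase that cross-links fibrin. It was at 4.97 and 6.18 FPKM in control, at 2.07, 4.88 and 5.52 FPKM in wild-type EAM and at 3.72, 3.95 and 4.11 FPKM in knockout EAM. Wild-type EAM library 1 was the lowest library, and all 3 knockout libraries were below both controls, as for 22.4% of all tested genes. The log2 change was -0.42 (SE 0.28) in wild-type EAM and -0.41 (SE 0.28, limma adjusted p = 0.551) in knockout EAM against control. Between the EAM groups it was 0.01 (SE 0.25) with all libraries and -0.33 (SE 0.12, limma adjusted p = 0.196, the lowest over the alternatives) without wild-type EAM library 1. The sign of this small value also changed under other settings that kept that library.

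Cbr2 (ENSMUSG00000025150; chromosome 11, 120729489 to 120732114, minus strand, mm10) encodes a carbonyl reductase known from mouse lung. It was at 8.91 and 12.7 FPKM in control, at 7.01, 9.46 and 9.06 FPKM in wild-type EAM and at 14.5, 7.10 and 6.69 FPKM in knockout EAM. The groups overlapped, and knockout EAM library 1 stood above the other 7 libraries. The log2 change was -0.30 (SE 0.29) in wild-type EAM and -0.24 (SE 0.29) in knockout EAM against control, and 0.07 (SE 0.26) between the EAM groups, none past the threshold. Without knockout 1 the last value was -0.26 (SE 0.18, limma adjusted p = 0.483, the lowest over the alternatives). Knockout EAM library 1 also held 90.9 FPKM of the airway gene Scgb1a1, which was at 6.72 FPKM in wild-type EAM library 2, at 0.403 FPKM in knockout EAM library 2 and listed at 0 in the other 5. The alveolar gene Sftpc was at 0.332 and 0.397 FPKM in knockout 1 and knockout 2 and listed at 0 elsewhere. The slope of Cbr2 on the adipocyte score, in a fit added after the values were seen, was 0.26 (SE 0.08, limma adjusted p = 0.431). No slope was fitted on airway genes. Whether airway or fat transcripts had a part in the level of Cbr2 was not tested beyond that slope.

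Of 15 pan-macrophage genes 13 were tested, all 13 with positive log2 changes in wild-type EAM against control (median 0.60), and 5 rose: Adgre1, Lyz2, Spi1, Ctss and Laptm5. Between the EAM groups, as knockout against wild type, all 13 were negative (median -0.74) and 8 fell, while in knockout EAM against control 0 passed with limma. Adgre1, which encodes the macrophage surface protein F4/80, was at 1.07 ± 0.130 FPKM in control (SD, n = 2), 2.67 ± 0.247 in wild-type EAM and 1.45 ± 0.172 in knockout EAM (SD, n = 3 each). Ctss, a lysosomal protease of antigen-presenting cells, was at 5.22 ± 1.34, 14.2 ± 3.25 and 6.404 ± 0.426 FPKM in the same order. Of 15 genes of recruited monocytes and inflammatory macrophages 7 were tested. Of these, 4 rose in wild-type EAM against control (Il1b, Cx3cr1, Fcgr4 and Nos2) and 3 fell in knockout EAM against wild-type EAM (Itgax, Il1b and Fcgr4). Ly6c2, another of the 7, had means of 2.49 FPKM in control, 3.13 in wild-type EAM and 2.15 in knockout EAM, and did not pass in any comparison. In knockout EAM against control 1 rose, Nos2, which encodes inducible nitric oxide synthase. Nos2 was at 3.89 ± 0.202 FPKM in control (SD, n = 2), 7.56 ± 1.25 in wild-type EAM and 8.12 ± 0.151 in knockout EAM (SD, n = 3 each; log2 change 0.90, SE 0.14, limma adjusted p = 0.0161 against control). Ccr2 itself was at 0.0589 and 0.0629 FPKM in control, at 0.260 to 0.421 FPKM in wild-type EAM and at 0.152 to 0.232 FPKM in knockout EAM, too low for the test.

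Growth and polarization signals of macrophages were a list of 18 genes, 11 of them tested. Il10ra and Bhlhe40 rose in wild-type EAM against control and fell in knockout EAM against wild-type EAM, and 0 passed with limma in knockout EAM against control. Bhlhe40, a transcription factor gene, was at 8.64 ± 0.757 FPKM in control (SD, n = 2), 13.9 ± 0.897 in wild-type EAM and 5.59 ± 0.523 in knockout EAM (SD, n = 3 each). Which cells made its transcripts was not tested. Csf1, the growth factor on which macrophages depend, was at 5.28 ± 0.297, 7.45 ± 0.366 and 6.46 ± 0.190 FPKM in the same order and did not pass.

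A second list of 24 genes known from tissue-resident macrophages gave 18 tested genes. In wild-type EAM against control 1 gene fell, 0 rose, and the median log2 change was 0.02. The gene was Ltc4s, which encodes leukotriene C4 synthase, at 3.998 ± 0.283 FPKM in control (SD, n = 2), 2.13 ± 0.154 in wild-type EAM and 2.85 ± 0.419 in knockout EAM (SD, n = 3 each; log2 change -0.68, SE 0.12, limma adjusted p = 0.0320 in wild-type EAM against control). In knockout EAM against wild-type EAM 0 passed with limma (median -0.05), and in knockout EAM against control 1 fell, the chemokine gene Ccl24, from 2.44 ± 0.664 to 0.965 ± 0.139 FPKM (limma adjusted p = 0.0427). Folr2, a folate receptor of resident macrophages, was at 7.996 and 12.5 FPKM in control, at 8.59 to 9.34 FPKM in wild-type EAM and at 8.82 to 13.02 FPKM in knockout EAM. Pf4, a chemokine gene of platelets and resident macrophages, was at 7.39 and 8.20 FPKM in control, at 5.14 to 5.77 FPKM in wild-type EAM and at 5.31 to 7.06 FPKM in knockout EAM, and did not pass.

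Each member was then set against the pan-macrophage genes of its own library, as log2(FPKM + 1) minus the mean of the 13 tested genes. The score of those genes was 3.32 and 3.49 in control, 4.16, 4.19 and 3.95 in wild-type EAM and 3.47, 3.48 and 3.28 in knockout EAM. Relative to it, Lyve1 was at -0.64 ± 0.03 in control (SD, n = 2), -2.30 ± 0.19 in wild-type EAM and -1.46 ± 0.31 in knockout EAM (SD, n = 3 each). Cd163 was at -1.89 ± 0.32, -3.14 ± 0.07 and -2.43 ± 0.29 in the same order, and Mrc1 at -1.60 ± 0.04, -2.13 ± 0.05 and -1.85 ± 0.19. For 6 of the 7 tested members every wild-type EAM library was below both controls, and for 6 of 7 every knockout library was above every wild-type EAM library, Vsig4 being the exception in both. Of the 10380 tested genes outside the score, 78.0% and 72.1% showed the same arrangements, so the members moved against the macrophage score much as most heart genes did. With 3 against 2 and 3 against 3 libraries the smallest two-sided exact permutation p is 0.1, and none of the 14 tests could reach 0.05 (lowest exact permutation p = 0.1, Benjamini-Hochberg adjusted 0.127).

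**Figure D4:**
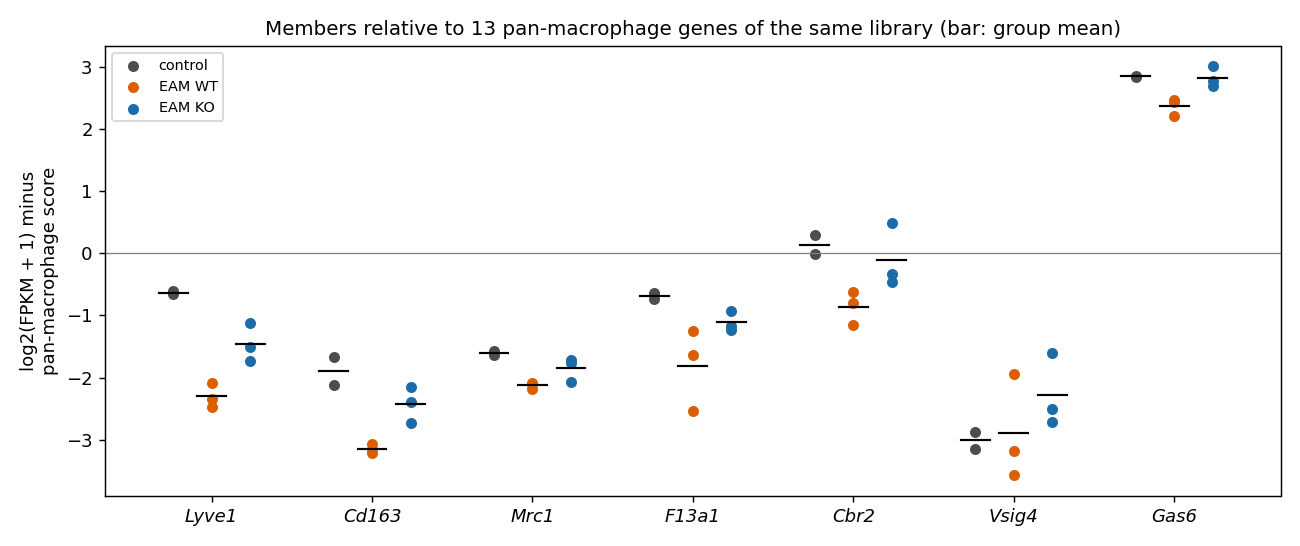
Log2(FPKM + 1) of each tested member minus the mean of 13 pan-macrophage genes in the same library, with bars at group means. For all members except Vsig4 the wild-type EAM points lie below control and below knockout EAM, an arrangement shared by most tested genes.

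Correlations between members across the 8 libraries were of both signs. Among the 21 pairs of tested members, Pearson correlations of log2(FPKM + 1) ranged from -0.61 (Cd163 with Vsig4) to 0.74 (Vsig4 with Gas6), and Lyve1 with Cd163 gave 0.62. These are descriptions over 8 libraries of 3 groups and rest partly on the group means. The gene most like Lyve1 was Tfap4 (r = 0.95), most like Cd163 was Vegfa (r = 0.94), most like Mrc1 was Shtn1 (r = 0.97), most like Cbr2 was Pop4 (r = 0.93) and most like Gas6 was Igfbp4 (r = 0.97). Siglece, an inhibitory receptor of myeloid cells, was among the 3 genes most like Mrc1 (r = 0.95), and Grn, a lysosomal protein gene, among those most like Gas6 (r = 0.97). Vegfa, a growth factor for vessels, was at 16.5 and 12.9 FPKM in control, at 9.46 to 12.03 FPKM in wild-type EAM and at 9.18 to 11.7 FPKM in knockout EAM.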

How the data were processed

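The 8 messenger RNA libraries of mouse heart were analysed from the authors' deposited table of FPKM values. Tools listed in the submitters' processing notes, with no role given, are StringTie 1.3.3b, HISAT2 2.0.4 and edgeR, beside the build mm10. The sources used here give no annotation release, filter or strand setting, so reads of overlapping or antisense genes cannot be told apart. Exon lengths from GENCODE M21 (98.8% of gene identifiers found) gave depth from the steps between low values, of which 40.7% to 43.1% per library came out whole within 0.05 fragments. Depth and fragment numbers are therefore estimates; those of Timd4 came out whole. Counting intervals are exact Poisson at 95% and cover counting error only.

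All 8 libraries and 3 groups were fitted together in limma 3.58.1 (R 4.3.3) on log2(FPKM + 1) with a mean-variance trend and 5 residual degrees of freedom, which lends the 2 controls the spread of the other groups. Genes with at least 1 FPKM in at least 2 libraries entered. Fold changes on this scale understate changes of low genes. The procedure was tried on simulated data with independent noise and with changes placed in genes of higher level than most members. That trial does not give the power for the members. The members and gene lists were chosen with earlier results of these data known. Named genes were the members, list genes past the threshold (the 4 largest changes where there were more) or else the 2 highest, and the 3 genes most correlated with each member (those of F13a1 are not reported here); Prox1, Flt4, Ccr2, Folr2, Pf4, Scgb1a1, Sftpc, Upk3b, Wt1, Reln, Mmrn1, Alb, Marco, Mertk, Tyro3, Csf1 and Ccl21a were named after their values were seen. Alternatives covered the pseudocount, the filter, 4 scalings, the trend, the samples fitted, a replicate block, 2 tissue scores as covariates and leaving out libraries.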

Additional observations from a re-analysis of the deposited data

How the results depend on the processing

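No member passed in knockout EAM against wild-type EAM under any of the 22 alternatives. Against control, the count of members past the threshold moved from 0 to 1 (Lyve1): in wild-type EAM when the 3 atrial-rich libraries were left out, with the adipocyte score as a covariate, and over single libraries left out (0 to 1, the 1 being without knockout 1), and in knockout EAM with the adipocyte score as a covariate. Of 453 member values under alternatives, 420 kept their direction and side of the threshold, 4 passed newly and 29 changed sign. In knockout EAM against wild-type EAM these were F13a1 (-0.016 at a pseudocount of 5, -0.053 with equal FPKM sums, -0.0057 with the atrial and -0.039 with the adipocyte covariate), Vsig4 (0.0076 and 0.031 with median-ratio scaling and quantile normalization), Cd163 (-0.0057 with equal sums), Cbr2 (-0.22 without the atrial-rich libraries, -0.15 with the adipocyte covariate) and Lyve1 (-0.00073 with that covariate). In knockout EAM against control they were Gas6 (0.029, 0.047, 0.057 and 0.042 with median-ratio scaling, quantile normalization, equal sums without mitochondrially encoded genes and the replicate block) and Vsig4 (-0.14 with the atrial and -0.14 with the adipocyte covariate). With single libraries left out, knockout EAM against wild-type EAM ranged from -0.33 to 0.21 for F13a1, -0.26 to 0.25 for Cbr2, -0.051 to 0.15 for Cd163, -0.038 to 0.31 for Lyve1 and -0.37 to 0.22 for Vsig4, and Gas6 in knockout EAM against control from -0.14 to 0.076. The cause was not tested.

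Vsig4 left the test without wild-type EAM library 2, without knockout 1 and without the 3 atrial-rich libraries, since it then missed the filter. Leaving out those 3 leaves 1 knockout library, and leaving out a control leaves 1 control; the lone library is assumed to vary like the other groups. The counts over all genes depended on single libraries: 155 genes in wild-type EAM against control became 15 without control 1 and 56 without control 2, and 142 in knockout EAM against control became 38 and 35, and 65 without knockout EAM library 2. In wild-type EAM against control 86 and 83 genes passed without wild-type EAM libraries 1 and 2, and in knockout EAM against wild-type EAM 101, 208, 102 and 164 without wild-type EAM libraries 1 and 3 and knockout EAM libraries 2 and 3. Over the other alternatives the 3 counts ranged from 58 to 175, from 72 to 388 (321 in the fit reported) and from 50 to 151. Replicate numbers were not used to pair libraries in the fit reported, and the earlier names give other numbers. Same-numbered EAM libraries of the 2 genotypes deviated together with r = -0.09, 0.35 and 0.31. Differently numbered ones ran from -0.50 to 0.26. Deviations from means of 3 libraries cannot settle whether libraries were paired. With the replicate block 0 members passed in any comparison, and 119, 253 and 122 genes did. Low members are limited by counting, Timd4 with 7 to 28 fragments per library.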
